A study of Mus musculus with 4 samples.

Results

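Very long genes are a small class in the mouse genome, and many of them serve nerve cells: they encode adhesion molecules, channels, receptors, scaffolds and a set of transcription factors. Acetylation of histone H3 at lysine 27 (H3K27ac) marks active promoters and active enhancers, and enhancers often lie within introns, of their target gene or of a neighbour of it. Here the H3K27ac peaks inside such genes are described gene by gene. The members are the peaks of chromosomes 1 to 19 whose summit lay inside a protein-coding gene of at least 400 kb, more than 5 kb and at most 50 kb from the nearer end of that gene. The choice used gene length and summit position and no enrichment value. Of 337 such genes, 186 held a member. There were 810 members among the 90483 peaks of those chromosomes in Smchd1-deleted cells and 524 among 62955 in control cells, out of 91639 and 63698 peaks deposited.

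The mark was mapped by sequencing of immunoprecipitated chromatin (ChIP-seq) in female neural stem cells of 1 line, numbered 1, derived at E14.5 from an embryo with 1 deleted and 1 floxed allele of Smchd1, whose protein binds chromatin and acts in X inactivation. The deleted cells had received the MSCV-Cre-puro retrovirus, were put under puromycin after 24 h and were collected on day 7. The control cells, the untransduced share of that line, still carried the deleted allele next to the floxed one, so deletion, transduction and selection cannot be told apart. Both groups had a 129 maternal X with an Xist deltaA allele and a Castaneus paternal X, and the strain field reads C57BL/6. Each group had 1 ChIP library and 1 whole-cell-extract input. The labels are not uniform: the titles call the control fl/fl and its genotype field del/fl, the control input is del/del in that field, and the antibody field names H3K27me3. Groups here follow the titles.

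All 10 neural stem cell markers checked, Sox2, Nes and Olig2 among them, had a peak in or within 1 kb of the gene in both lists. Of 8 neuron markers, 5 had none in either list (Tubb3, Dcx, Snap25, Neurod6 and Stmn2), and of 4 fibroblast markers 3 had none. Nfia, which is also one of the long genes, is on the stem cell list and had 100 deleted and 73 control peaks. Both lists had a peak at 3 of 4 astrocyte markers, 2 of 4 microglia markers and 1 of 4 oligodendrocyte markers. Among astrocyte markers Gfap had 4 deleted and 0 control peaks, Aqp4 had 4 and 1, S100b 4 and 2, and Aldh1l1 18 and 20. The neuron markers with a peak were Map2 (18 and 13), Syt1 (5 and 1) and Rbfox3 (1 and 0), and the fibroblast marker was Col1a1 (8 and 3). The oligodendrocyte marker was Mbp (24 and 19), and the microglia markers were Csf1r and Tmem119 (1 and 1 each) and Aif1 (1 and 0). No percentage of all genes with such a peak is given, and the counts are not scaled for gene length. They therefore do not establish the cell type. The part of other cells in the results below was not tested. A weaker peak in a bulk culture can come from fewer acetylated cells or from less acetylation per cell, and these cannot be told apart. The ChIP library of deleted cells kept 54194233 tags after filtering and that of control cells 42277672, a ratio of 1.28. No group had a replicate, so no p-value is given and each difference is one between a pair of libraries.

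Some of the strongest members covered an annotated transcription start that lies inside the long gene, and their sequences show how unlike these starts are. The 250 bases before the start, from RefSeq on GRCm38.p6, are printed for the 6 starts of a long gene that were overlapped by a member with a fold enrichment of at least 8. Fold enrichment is the ChIP pileup at the summit over the local input background, as MACS2 wrote it within each library. Each sequence runs 5′ to 3′ on the gene's strand, and capitals mark CG dinucleotides.
Sox6, chr7:116031048-116031297 (- strand): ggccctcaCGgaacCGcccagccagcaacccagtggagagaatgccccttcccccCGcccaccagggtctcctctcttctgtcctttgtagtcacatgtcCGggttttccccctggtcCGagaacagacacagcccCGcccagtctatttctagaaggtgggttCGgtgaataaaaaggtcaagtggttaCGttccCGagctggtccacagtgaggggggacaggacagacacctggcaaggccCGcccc
Nfia, chr4:97581693-97581942 (+ strand): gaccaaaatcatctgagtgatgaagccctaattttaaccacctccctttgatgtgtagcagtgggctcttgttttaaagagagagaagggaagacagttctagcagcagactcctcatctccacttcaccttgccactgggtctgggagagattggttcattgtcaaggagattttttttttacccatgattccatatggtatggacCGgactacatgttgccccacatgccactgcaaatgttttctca
Pde4b, first start, chr4:102569810-102570059 (+ strand): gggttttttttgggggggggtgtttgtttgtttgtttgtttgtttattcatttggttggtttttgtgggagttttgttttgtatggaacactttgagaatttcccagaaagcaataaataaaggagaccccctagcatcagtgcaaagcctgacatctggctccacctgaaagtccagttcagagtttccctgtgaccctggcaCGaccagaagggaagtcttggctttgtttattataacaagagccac
Pde4b, second start, chr4:102589593-102589842 (+ strand): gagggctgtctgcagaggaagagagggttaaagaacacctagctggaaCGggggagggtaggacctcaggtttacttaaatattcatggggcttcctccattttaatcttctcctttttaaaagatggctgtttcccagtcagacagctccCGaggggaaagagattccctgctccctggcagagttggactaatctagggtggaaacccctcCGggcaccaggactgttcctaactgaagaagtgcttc
Gphn, chr12:78226405-78226654 (+ strand): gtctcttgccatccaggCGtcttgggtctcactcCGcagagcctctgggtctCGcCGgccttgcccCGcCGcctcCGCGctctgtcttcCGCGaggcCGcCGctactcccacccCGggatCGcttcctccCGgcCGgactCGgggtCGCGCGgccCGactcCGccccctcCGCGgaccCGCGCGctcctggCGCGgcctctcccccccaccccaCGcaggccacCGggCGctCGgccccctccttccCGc
Adgrb3, chr1:25829708-25829957 (- strand): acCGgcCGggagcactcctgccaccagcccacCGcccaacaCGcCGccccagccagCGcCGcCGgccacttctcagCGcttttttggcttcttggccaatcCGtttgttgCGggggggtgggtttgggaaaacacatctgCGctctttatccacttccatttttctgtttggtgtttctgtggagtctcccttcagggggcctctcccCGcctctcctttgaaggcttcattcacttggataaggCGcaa
Gphn, which encodes gephyrin, the scaffold of inhibitory synapses, had 34 CG dinucleotides and a GC content of 77.2%. Adgrb3, an adhesion G protein-coupled receptor, had 14, and Sox6, a transcription factor of neural progenitors and glia, had 10. The start of Nfia, a nuclear factor I protein needed for the formation of glia, had 1, and those of Pde4b, a cyclic AMP phosphodiesterase, had 1 and 3. The median over 32851 RefSeq starts was 6 CG dinucleotides and a GC content of 52.4%. Peaks of both lists covered all 250 bases at Sox6, Nfia and the second Pde4b start. At Gphn they covered 160 bases (deleted) and 139 (control), and at Adgrb3 250 and 92 bases. At the first Pde4b start the deleted peak covered the last 17 bases and the control peak began beyond them. In all, 25 RefSeq start windows (250 bases before to 50 after a start) were overlapped by a member, 12 of them starts of the long gene itself, in 10 genes. Motifs were searched on both strands in the 250 bases before each start only. Of 5 short motifs, ACAAAG (bound by SOX proteins) was there at 7 of these 25 starts and at 16.5% of all starts. CAGCTG (an E-box) and GGAATG (TEAD) were each in 4, with 13.0% and 12.6% of all starts, and TGANTCA (AP-1) and TTGGCA (a nuclear factor I half-site) each in 1, with 6.75% and 12.3%. Among the printed stretches, that of Sox6 and the first of Pde4b each held ACAAAG once on one strand.

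The member at the Sox6 start was the most enriched in both lists. On chromosome 7 it ran from 116029536 to 116032812 in deleted cells, with a fold enrichment of 17.0 and a pileup of 100, and from 116029712 to 116032776 in control cells, with 15.5 and 77. Its summit lay 8.84 kb from the 5′ end of the RefSeq span in deleted and 8.86 kb in control cells, and only 0.102% and 0.200% of the peaks of each list ranked as high. A second Sox6 peak, 6.74 kb from that end, reached 10.3 in deleted and 8.83 in control cells. The top peak also covered the start of Sox6os, an antisense transcript, and ChIP does not tell the strands apart. Toward the other end of Sox6 the lists differed in number, with 6 deleted and 1 control peak. Of the 6, 4 formed a run of weak peaks with a top fold enrichment of 4.03. All 4 overlapped no control peak, as did 50.7% of all deleted peaks of chromosomes 1 to 19 and 68.1% of those with a fold enrichment from 3 to 4.

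At Nfia the start peak on chromosome 4 was long, from 97581206 to 97585727 in deleted cells and from 97581283 to 97585649 in control cells. Its fold enrichment was 12.9 in deleted and 9.89 in control cells. In both lists this peak also spanned the start window of E130114P18Rik (97584542 to 97584841), a transcript on the other strand. Its signal therefore cannot be assigned to the Nfia start alone. The control summit fell nearer than 5 kb to the gene end, so this peak counts as a member in the deleted list only, although the lists overlap there. Nfia had no member on its 3′ side. Its 5′ side held 17 deleted and 18 control members, of which 15 and 16 overlapped a peak of the other list. Most of them formed a run from 97601717 to 97628078 in deleted cells, with 14 peaks, and from 97606587 to 97628160 in control cells, with 17. The peaks of the run covered 12.5 kb and 12.1 kb. Over the whole length beyond 5 kb from the ends, with no maximum distance, Nfia had more deleted than control peaks.

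Pde4b held its members on the 3′ side only, 18 in deleted and 13 in control cells, where shorter isoforms start. The leading one on chromosome 4 ran from 102570043 to 102571652 in deleted cells (fold enrichment 9.29, pileup 64) and from 102570061 to 102571411 in control cells (11.9, pileup 58). The member at the second printed start reached 9.0 in deleted and 8.47 in control cells. Fold enrichment is not scaled between the libraries, so the order of these values is not a change. Gphn had 4 members in each list. Its 3 neighbouring 5′ peaks reached 9.07, 10.6 and 9.23 in deleted cells. The first overlapped 2 control peaks, the stronger at 6.66, and the others 1 each, at 8.68 and 11.5. Adgrb3 had 5 deleted members and 10 control members on its 5′ side, all 5 of the former overlapping a control peak. Its deleted peak from 25827182 to 25830130 on chromosome 1 overlapped 4 control peaks, so 1 long interval in one list stood against several shorter ones in the other. Neither Gphn nor Adgrb3 had a peak within 1 kb of either end of its span.

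Over all long genes the lists held more members in deleted than in control cells, by about as much as in shorter genes. The ratio of deleted to control members was 1.55 (95% interval 1.38 to 1.73), against 1.44 (1.42 to 1.45) for all peaks of chromosomes 1 to 19 and 1.55 (1.5 to 1.60) for peaks at the same distances inside protein-coding genes of 100 to 400 kb. Farther than 50 kb from both ends of the long genes it was 1.65 (1.57 to 1.73), with 3953 and 2400 peaks, and within 5 kb of an end 1.37 (1.17 to 1.61), with 375 and 273. The intervals, exact binomial ones, hold for counting error alone and treat each peak as independent, which neighbours are not. Among peaks with a fold enrichment of 5 or more there were 95 deleted and 99 control members, a ratio of 0.960. All peaks of chromosomes 1 to 19 at that enrichment numbered 18904 and 18187. Those at the same distances in genes of 100 to 400 kb numbered 898 and 862. The files write some values of 5 as 4.99999, and with a tolerance of 0.001 there were 99 and 101 members, a ratio of 0.980. With both lists set to equal length, so that all peaks are equal in number by design, the ratio for members was 1.01.

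Deleted-only members, which overlap no control peak by even 1 base, numbered 478, or 59.0% (55.5 to 62.4), against 50.7% of all peaks of these chromosomes. Control-only members numbered 161, or 30.7% (26.8 to 34.9), against 24.4%. Peaks at the same distances in genes of 100 to 400 kb had 58.3% (57.3 to 59.4) and 32.1% (30.9 to 33.4), and these intervals overlap those of the long genes. Peaks over 50 kb from both ends of the long genes had 59.9% and 30.5%. Within 5 kb of an end the percentages were 37.1% (32.2 to 42.2) and 8.06% (5.12 to 11.9). Split by enrichment, the percentages fell steeply from weak to strong peaks among members and among all peaks. Below a fold enrichment of 3, 79.3% of deleted members were deleted-only and 78.6% of all deleted peaks. From 3 to 4 the values were 70.4% and 68.1%, from 4 to 5 they were 42.1% (34.2 to 50.4) and 33.5%, and from 5 upward 2.11% (0.256 to 7.40) and 4.13%. In the control list from 5 upward, 1 of 99 members was control-only, or 1.01%, against 1.29% of all control peaks.

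Long genes carried fewer peaks for their length than shorter ones. At the distances studied there were 26.9 deleted and 17.4 control peaks per Mb in the long genes, and 48.9 and 31.6 in genes of 100 to 400 kb. Deeper inside the long genes there were 19.7 and 12 per Mb. A member was found in 55.2% of the 337 long genes, and 67.7% of 1975 genes of 100 to 400 kb had a peak at these distances. Members were weaker and a little shorter than the average peak. The median fold enrichment was 3.36 in deleted and 3.83 in control members, against 3.53 and 4.04 for all peaks, and 11.7% and 18.9% of members reached 5, against 20.9% and 28.9%. The median member was 291 bases long in deleted and 278.5 in control cells, against 311 and 313 for all peaks. Peaks at these distances in genes of 100 to 400 kb had the same medians, 3.36 and 3.83. Members also lay over fewer annotated starts, but the definition leaves out peaks within 5 kb of the long gene's ends. A lower percentage is therefore built into the choice of members, and none is given here for shorter genes at the same distances. Starts of chromosome 18 were not used, so its 42 deleted and 41 control members could not be scored. Of the other 768 deleted and 483 control members, 22 and 18 overlapped a RefSeq start window, or 2.86% and 3.73%, against 11.2% and 12.7% of all peaks outside chromosome 18. Among the 20 most enriched members of each list, 16 deleted and 17 control ones could be scored, and 6 and 5 of these overlapped a window.

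The members were shared out unevenly among the 186 genes. The median was 3.5 members per gene over both lists together, 45 genes had a single one, and the 10 gene models with the most held 203 deleted members (25.1%) and 162 control members (30.9%). Both lists had members in 123 of the 186, the deleted list alone in 52 and the control list alone in 11. The 45 genes with a single member can only fall in one list. No such split is given here for shorter genes, so it is not read as a trait of long ones. More deleted than control members were found in 131 genes and fewer in 23, or 70.4% and 12.4%. Of 1337 genes of 100 to 400 kb with a peak at these distances, 73.1% had more and 14.3% fewer. The plot of numbers per gene shows most genes between the line of equal numbers and the upper left. Maml2 and Kirrel3 sit near the line for all peaks, and Arhgap26, Adgrb3 and Ttc28 lie below equality.

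**Figure D1:**
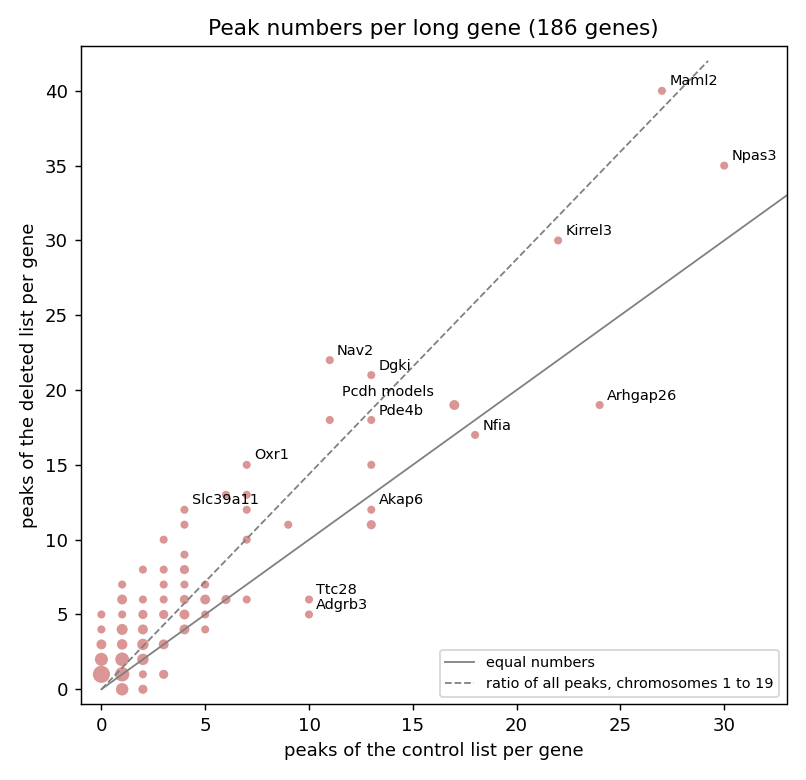
Peaks per gene in the control list (x axis, number) and the deleted list (y axis, number) for the 186 long genes with a member, with larger points for more genes, a solid line at equal numbers and a dashed line at the ratio of all peaks. Maml2 (40 and 27) and Npas3 (35 and 30) lie farthest out, and Arhgap26 (19 and 24) lies below the solid line.

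Maml2, a coactivator of Notch signalling on chromosome 9, led with 40 deleted and 27 control members. Toward its 3′ end they formed 1 run of 33 deleted peaks over 42.03 kb (13662313 to 13704342), and 25 control peaks over 41.6 kb, covering 21.4 kb and 17.7 kb. Its top peak, from 13698625 to 13699439 in deleted cells, reached 11.1 (pileup 65) there and 8.20 (pileup 40) in control cells. Of the 40 deleted members 16 were deleted-only and of the 27 control members 2 were control-only. Npas3, a transcription factor of neural development on chromosome 12, had 35 and 30, with 26 and 22 of them in 1 run near the 3′ end that spanned 37.0 kb and 39.3 kb. Its top peak reached 9.83 in deleted and 7.06 in control cells. Kirrel3, a synaptic adhesion molecule of the immunoglobulin family on chromosome 9, had 30 and 22, all in 1 run near the end of its span with the higher coordinate, with top values of 9.57 and 7.46. The plot of single members shows that in these 3 genes tall and short peaks alternate over most of the zone, and that most list-only members are short.

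**Figure D2:**
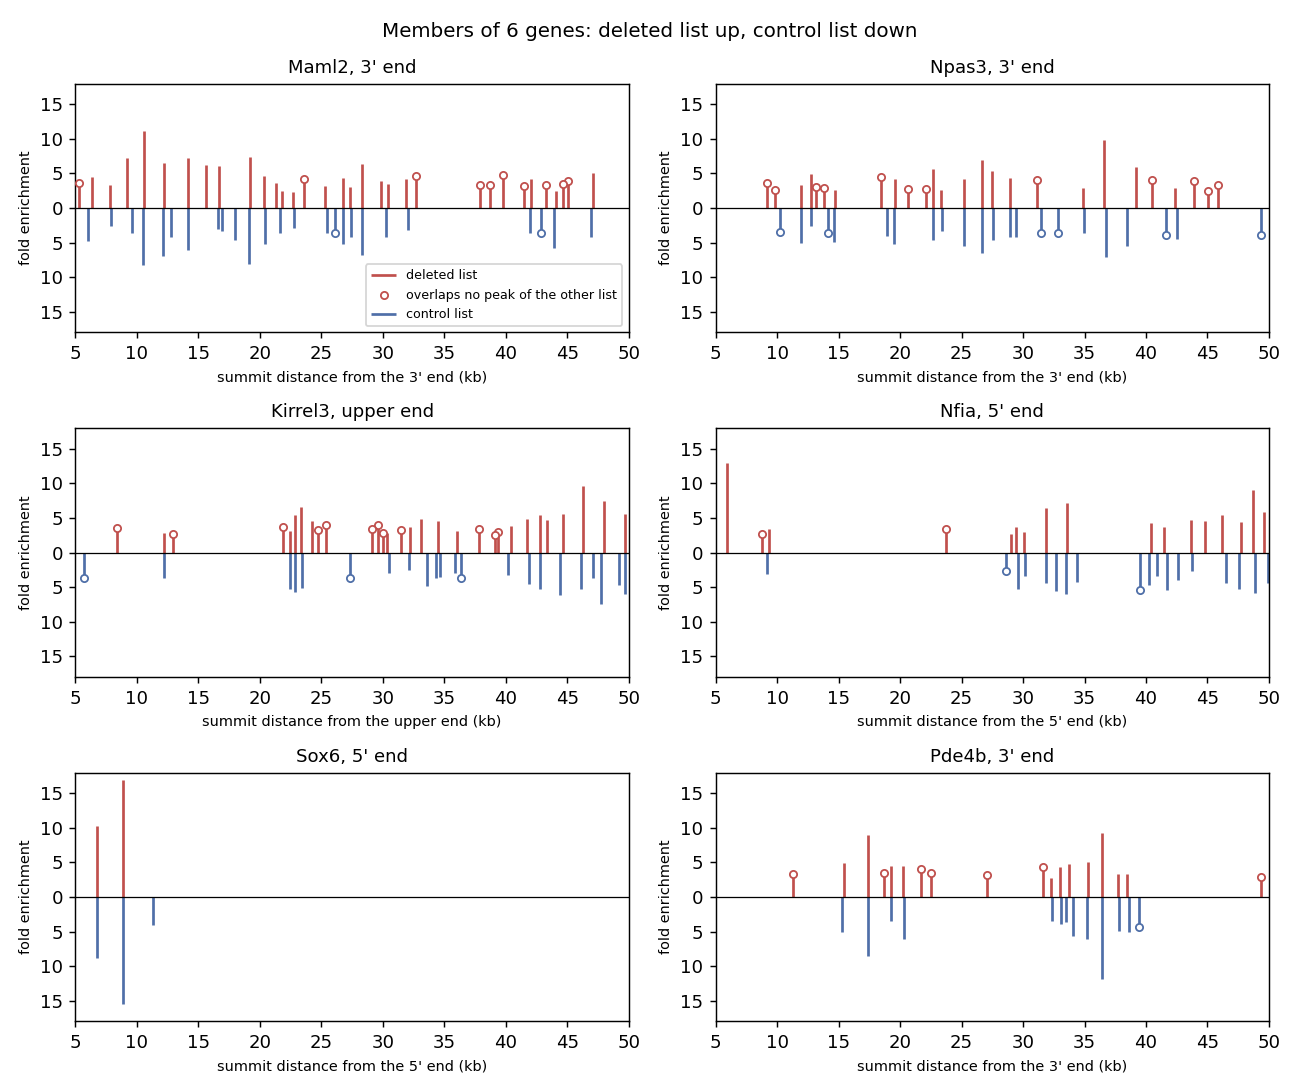
Members of Maml2, Npas3, Kirrel3, Nfia, Sox6 and Pde4b by distance of the summit from the named gene end (x axis, kb) and fold enrichment (y axis); deleted list upward, control list downward, open circles on members that overlap no peak of the other list. Sox6 reaches 17.0 and 15.5 at 8.84 and 8.86 kb, while Maml2, Npas3 and Kirrel3 have peaks over most of the zone.

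Arhgap26, a GTPase-activating protein on chromosome 18, had fewer deleted than control members, 19 and 24, with top values of 9.74 and 6.66. It was also rich beyond the zone, with 163 deleted and 147 control peaks deeper in the gene, so that with no maximum distance the deleted list had more. On the same chromosome 3 overlapping gene models, Gm37013, Gm38666 and Gm38667, span the clustered protocadherins, which encode neuronal surface proteins. They share the same 19 deleted and 17 control members, with top values of 13.9 and 12.6 and no control-only member. The top deleted peak lay within 5 kb of an end of Pcdhgc3. Without peaks so near to another gene's end, and also at a fold enrichment or a −log10 q-value of 5 or more, these models had fewer deleted than control members. Dgki, a diacylglycerol kinase on chromosome 6, had 21 and 13, mostly toward its 3′ end (16 and 12). Nav2, a cytoskeletal protein of growing neurites on chromosome 7, had 22 and 11, mostly toward its 5′ end (17 and 9). Pde4b, with 18 and 13, came next.

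**Figure D3:**
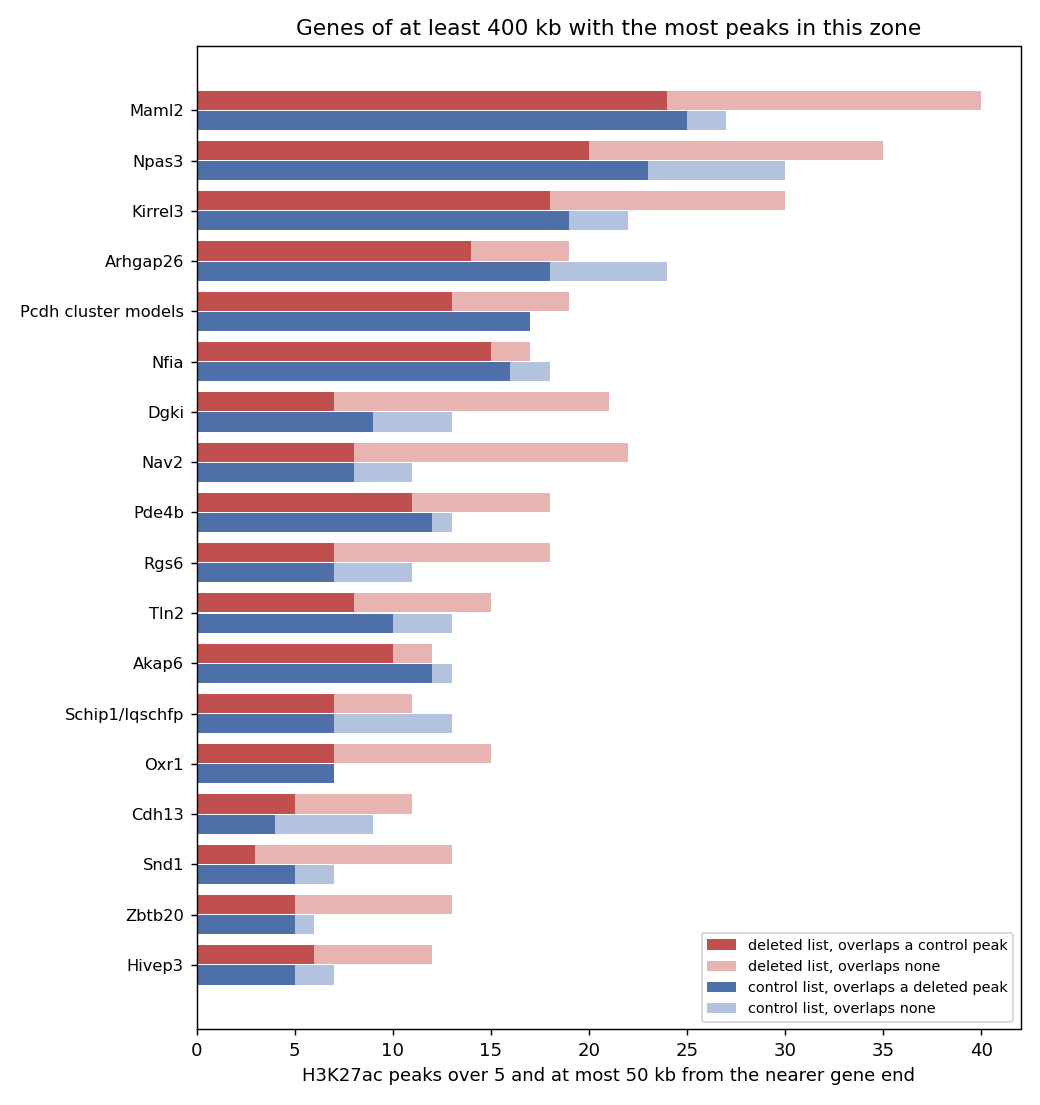
Number of members (x axis) in the 18 loci with the most, as a pair of bars each: deleted list above, control list below, dark where a peak of the other list overlaps and pale where none does. Maml2 has 16 of 40 deleted and 2 of 27 control members in the pale part, and gene models that share their peaks (the protocadherin models, and Schip1 with Iqschfp) are drawn once.

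The largest excess of deleted members was in Maml2 (13 more), Nav2 (11 more) and then, with 8 more each, Kirrel3, Dgki, Oxr1 and Slc39a11. Oxr1, an oxidation resistance protein, had 15 and 7, and its 7 control members all overlapped a deleted peak. Slc39a11, a zinc transporter, had 12 and 4, with 10 deleted-only. At the other end stood Adgrb3 (5 and 10), Arhgap26 (19 and 24), Ttc28 (6 and 10) and the overlapping models Iqschfp and Schip1 (11 and 13), Iqschfp being the one the naming rule took. Ttc28 shared little, with 4 of 6 deleted and 8 of 10 control members list-only and top values of 4.87 and 4.84. Kirrel3, Pde4b and Slc39a11 had fewer deleted than control members when a fold enrichment of 5 was required, Dgki and Npas3 when a −log10 q-value of 5 was, and Npas3 also in lists of equal length. With no maximum distance Iqschfp and Akap6 had more deleted peaks, as they did at a −log10 q-value of 5 or more.

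Some genes had nearly the same peaks in both cultures. All members of Cacna1d, a calcium channel subunit (2 in each list), and Cdk14, a cyclin-dependent kinase (4 in each list), overlapped a peak of the other list. Akap6, an anchor for protein kinase A, had 12 deleted and 13 control members with 2 and 1 list-only. The leading Cacna1d member, at 8.4 in deleted and 7.67 in control cells, lay within 5 kb of an end of Dcp1a, which encodes an mRNA-decapping protein. The leading deleted member in Cacna1c, the paralogue on chromosome 6 (7.05), overlapped the start window of Dcp1b, the paralogue of Dcp1a; Cacna1c was singled out after its values were seen. In all, 14.6% of deleted and 15.6% of control members lay within 5 kb of an end of some other gene. No such percentage is given for all peaks or for shorter genes, so it is not read as a trait of members.

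List-only members were weaker than shared ones within each list. Their median fold enrichment was 3.19 among deleted and 3.43 among control members, against 4.03 and 4.19 for members that were shared. Of the 478 deleted-only members, 2 were at or above 5 as deposited, in Hivep3, a zinc-finger protein (5.54, chromosome 4, 119779585 to 119779852), and in Maml3, a relative of Maml2 (5.28, chromosome 3, 52070163 to 52070397). The Hivep3 peak ended 119 bases from a control peak, while the nearest control peak to that of Maml3 was 32067 bases away. The next were in Magi2, a synaptic scaffold (deposited as 4.99999, over a RefSeq start of Magi2 and 341 bases from a control peak), Ttc28 (4.87) and Rora, a nuclear receptor (4.87, 188 bases from a control peak). In the control list 1 of the 161 reached 5, in Nfia (5.38, chromosome 4, 97617415 to 97617689), 56 bases from a deleted peak. It was followed by Ptprn2, a receptor-type phosphatase, and Ttc28 (4.84 each), Mdga2, a membrane protein of synapse formation (4.64), and Adgrb3 (4.54). When a peak of the other list within 500 bases counted as shared, 47.5% of deleted and 20.04% of control members were list-only, in place of 59.0% and 30.7%. No percentage over all peaks is given under that rule, so it sets members against no other peaks.

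Deleted members and control peaks formed 241 pairs that overlapped 1 to 1, and in 240 of them the control peak was a member too, the exception being the Nfia start peak. Their summits differed by a median of 88 bases, and 131 pairs, or 54.4%, by at most 100 bases. Across these pairs the log2 fold enrichments had a Pearson correlation of 0.632 and a Spearman correlation of 0.482. This describes peaks of the same pair of libraries, which are not independent replicates. Median fold enrichment over the pairs was 3.92 in deleted and 4.04 in control cells. The plot of paired values shows a broad cloud near 4 and few pairs above 8 in the deleted list. Most of those few had the higher value in the deleted list, such as one in Kirrel3 (9.57 against 5.29). A pair in Pde4b (9.29 against 11.9) and one in Gphn (9.23 against 11.5) had the higher value in the control list. These values are not scaled between the libraries.

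**Figure D4:**
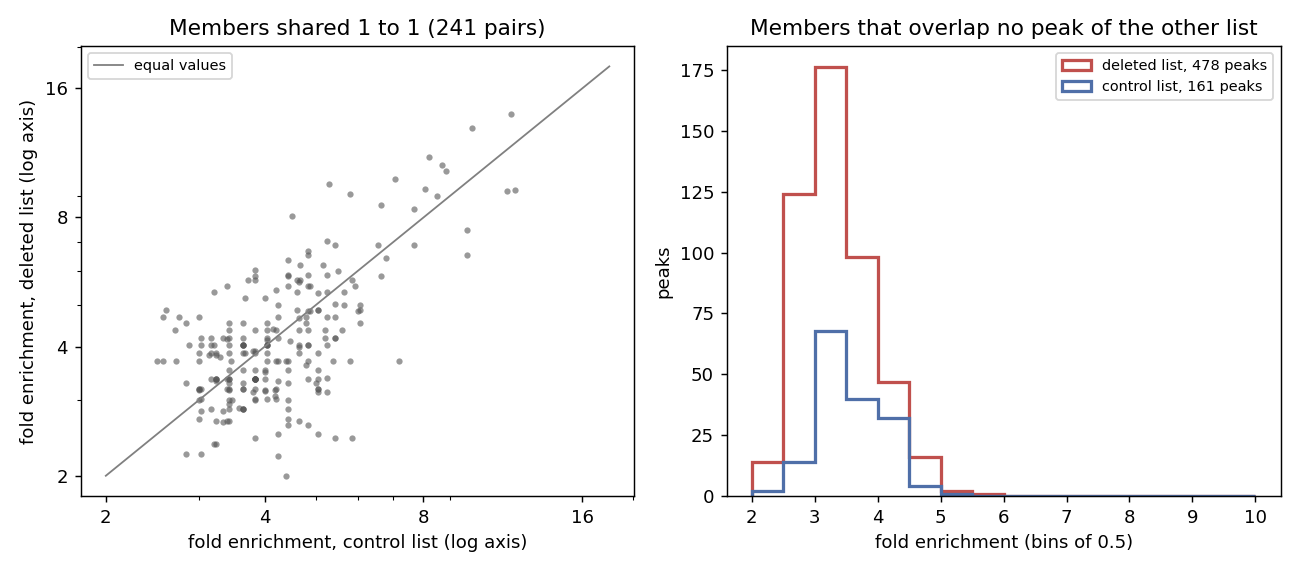
Left, fold enrichment of the 241 deleted members that overlapped a control peak 1 to 1, control list (x axis, log) against deleted list (y axis, log), with the line of equal values. Right, number of list-only members (y axis) by fold enrichment (x axis, bins of 0.5): 478 deleted-only and 161 control-only members, with 2 and 1 at or above 5 as deposited and another deleted-only one at 4.99999.

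By role, using lists chosen with earlier results of these data known, genes with a member ran from 3 of 10 matrix genes to 7 of 10 in cyclic nucleotide and lipid signalling. Over all 337 genes the percentage was 55.2%, with a median of 1 deleted and 0 control members. Transcription and chromatin regulators had a member in 17 of 27 genes, with 148 deleted and 101 control peaks, 48.0% and 18.8% of them list-only, against 59.0% and 30.7% of all members. Maml2, Npas3, Nfia and Zbtb20 (13 and 6), a zinc-finger repressor of neural progenitors and astrocytes, led this list. In 14 of the 17 genes the deleted list had more, where 131 of all 186 genes with a member did (70.4%). Zfhx3, Auts2, Foxp2 and Zfpm2, also transcription regulators, had no member, though Zfhx3 had 22 deleted and 14 control peaks deeper inside.

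Synaptic and cell adhesion genes had a member in 15 of 28 genes, with 73 and 51 peaks, and Kirrel3 alone held 30 and 22 of them. Adgrb3, Lrrc4c, a postsynaptic adhesion protein (6 and 6), and Ntm, neurotrimin (8 and 2), followed. Ctnna2, Nrxn3, Negr1, Ncam2, Sdk1 and Nlgn1, which build neuronal contacts, had no member, and Cntnap2 had 1 control member only. The list of single cadherins and protocadherins, which leaves out the richer protocadherin cluster models, had a member in 5 of 8 genes, led by Cdh13 (11 and 9) and Cdh4 (11 and 4). Axon guidance and migration genes had one in 9 of 16, led by Nav2, Sema6d (5 and 5) and Dab1, the adaptor of Reelin signalling (4 and 1). Dcc, Reln, Robo2 and Unc5d had none.

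Channel genes had a member in 11 of 17 cases, with 21 and 17 peaks, led by Kcnd2, a potassium channel (6 and 5). Neurotransmitter receptors had one in 7 of 12, with 22 and 12 peaks, led by Chrm3, a muscarinic acetylcholine receptor (6 and 7), and Grin2b, an NMDA receptor subunit (3 and 2). Grm7, Gabrb1 and Gabrg3 had none and no peak deeper inside. Receptor-type phosphatases had a member in 2 of 6 genes, Ptprt (4 and 4) and Ptprn2 (2 and 2). Genes of cyclic nucleotide and lipid signalling had one in 7 of 10, with 71 and 44 peaks, and the deleted list had more in all 7, against the same 70.4% of all long genes with a member. Dgki, Pde4b and Rgs6, a regulator of G protein signalling (18 and 11), held most. Kinase and growth factor genes had one in 10 of 15, with 27 and 13 peaks, led by Prkce (5 and 4) and Prkca (6 and 1), protein kinases C. RNA-binding proteins had one in 3 of 6, with Rbfox1, a splicing regulator, at 5 and 4.

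Scaffold, polarity and cytoskeleton genes had a member in 21 of 33 cases, with 53 deleted and 24 control peaks, 71.7% and 29.2% list-only, against 59.0% and 30.7% of all members. Dock1, an activator of Rac (9 and 4), Lpp, a focal adhesion protein (6 and 2), and Frmd4a, a polarity scaffold (7 and 1), led. Matrix and proteoglycan genes had one in 3 of 10, mainly Tnr, tenascin-R (7 and 4). Among large genes of chromosomal fragile sites 6 of 10 had one, with 11 deleted and 4 control peaks. Fhit, Lrp1b, Macrod2 and Csmd3 had none. Of the 337 genes, 139 were on no list, and 70 of these had a member.

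Genes with a peak at one of their ends also had more members within. Of 143 genes with a peak within 1 kb of an end in both lists, 110 had a member, or 76.9%, with means of 4.24 deleted and 2.65 control members. Of 152 genes with no such peak in either list, 47 had one, or 30.9%, with means of 0.816 and 0.645. Adgrb3, Cdh13 (11 and 9), Gphn and the Schip1 models were among the latter. Among 39 genes with an end peak in the deleted list only, 26 had a member, and Kirrel3 was one of them. Of the 151 genes without a member, 51 had no peak anywhere inside in either list. Across the 337 genes the number of members had a Spearman correlation with the number of peaks deeper inside of 0.614 for deleted and 0.535 for control peaks, and with gene length of -0.109 and -0.104. These describe genes measured in the same libraries and are not tests.

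Members lay more often on the 3′ than on the 5′ side. RefSeq starts gave the strand of 259 of the 337 genes. In these, 336 deleted members lay toward the 3′ end and 255 toward the 5′ end, or 56.9% (52.7 to 60.9) on the 3′ side, and in the control list 229 and 159, or 59.0% (53.9 to 64.0). Without Maml2 and Npas3 the percentages were 53.7 and 55.0, and in genes of 100 to 400 kb they were 53.6 and 54.0. By gene, 65 had more deleted members on the 3′ and 59 on the 5′ side. Nearest to the ends the order turned: between 5 and 10 kb there were 34 deleted members on the 5′ side and 28 on the 3′ side, and 27 and 21 control members. From 20 to 30 kb there were 57 and 87, and 26 and 55. Control-only members made up 27.04% of control members on the 5′ and 37.6% on the 3′ side, and deleted-only members 58.0% and 60.7%.

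**Figure D5:**
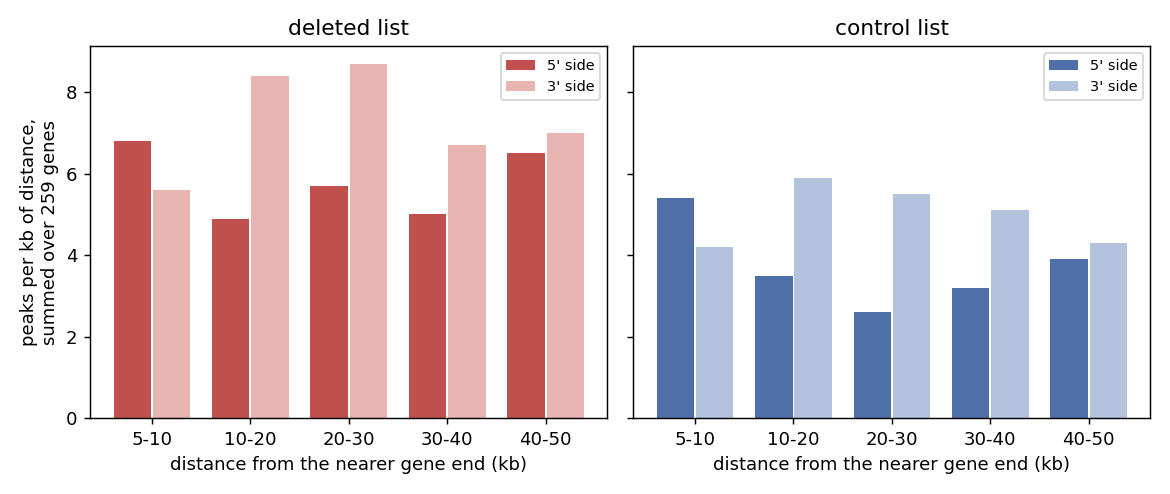
Members per kb of distance (y axis, summed over the 259 genes with a known strand) by distance of the summit from the nearer gene end (x axis, kb), on the 5′ side (dark) and the 3′ side (pale), for each list. The 5′ side is higher between 5 and 10 kb (6.8 and 5.6 per kb in the deleted list) and the 3′ side from 10 kb on.

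The limits of the definition cut through a continuous range. The shortest genes inside were Fam189a1 (4 and 2 members) and Dst (2 and 2), and among the longest outside, which are not counted, were Ano4 (0 and 0) and Adk (9 and 4). Between 5 and 6 kb from an end there were 26 deleted and 18 control members, and 18 and 18 uncounted peaks between 4 and 5 kb. Between 49 and 50 kb there were 24 and 16, and 14 and 13 between 50 and 51 kb.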

How the data were processed

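The submitters' processing notes name bcl2fastq, Bowtie 0.12.9 and the build mm10. Peaks were called by the authors with MACS2 2.1.0.20140616, per the file headers, as narrow peaks over the matching input. The headers record a q-value cutoff of 0.05, at most 1 tag per position and scaling by down-sampling whichever library was larger. The deposited lists give the pileup signal at each summit, −log10 p-values and −log10 q-values, and fold enrichment. The last is a ratio to a background and is not scaled between libraries. After filtering, the inputs kept 77101643 and 80601280 tags.

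From these lists, members were found with the RefSeq gene table of GRCm38.p6, whose chromosomes are those of mm10, with pandas 2.3.3 in Python 3.11.15. Shared means an overlap of 1 base or more with the other list. Peaks inside 2 overlapping genes count once in totals and under each gene. The strand came from the RefSeq start table, for 259 of 337 genes. Runs join peaks at most 12.5 kb apart. Intervals are exact Clopper-Pearson 95% intervals (scipy 1.17.1) and cover counting error only. There is 1 library per group, so no test was run. The background, worked back from pileup and fold enrichment, was over 2% above the lowest value of the list for 19.8% of deleted and 21.4% of control members. Planted members were all recovered when the code was tested on simulated data. Members, role lists and alternatives were chosen with earlier results of these data known.

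Named genes were taken by rule: the 10 with the most members, the 6 largest and 4 smallest differences, the genes of the 8 most enriched members and 5 most enriched list-only members of each list, and the 4 with the highest shared percentage among those with at least 4 members, beside up to 4 genes from each role list. A few genes that the rule takes are not reported here. Genes without members are named as examples chosen afterwards. Motifs at the summits were planned but not analysed here, as no genome sequence was used, and motifs were counted in the start windows instead.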

Additional observations from a re-analysis of the deposited data

How the results depend on the processing

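No paired analysis was possible because each group had 1 ChIP library. The ratio of deleted to control members was 1.55 as reported. A −log10 q-value minimum of 5 gave 1.33. A fold enrichment minimum of 5 turned it to 0.960 (0.980 with a tolerance of 0.001, chosen after seeing the data), where all peaks numbered 18904 and 18187. In lists of equal length, where all peaks are equal in number by design, it was 1.01. The deleted-only percentage was 59.0 as reported. It was 52.7 with the q-value minimum, 37.9 with the enrichment minimum (37.4 with the tolerance), 47.6 in lists of equal length, 69.1 when 50% of a peak had to be covered and 47.5 when a peak within 500 bases counted as shared. The control-only percentage was 30.7 as reported, and under the last 4 of these settings 36.4, 39.5, 38.5 and 20.04. The fold enrichment and q limits filter both lists, so weak partners are lost with them. No list-only percentages over all peaks are given under these settings, so they do not show whether members differ from other peaks. Other minimum gene lengths (300 and 600 kb), distances and the removal of peaks near other genes left all 3 values within their intervals, as did leaving out Maml2 or the protocadherin models, which was chosen after seeing the data. Of 18 named genes with more deleted members, 12 kept that with the q-value minimum, 7 with the enrichment minimum and 16 in lists of equal length. The 3 protocadherin models, which share the same members, count separately among the 18, and 15 remain without them. All 3 had fewer deleted than control members with the q-value and with the enrichment minimum. The cause of these shifts was not tested. The deleted ChIP library had 1.28 times the tags of the control, and the part of depth was not tested.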

Other observations

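The same definition was applied to the X chromosome after the autosomal values had been seen, because Smchd1 is best known for its part in X inactivation. Of 14 protein-coding genes of at least 400 kb on X, 1 had a peak at these distances: Tenm1, a teneurin of neuronal contacts, with 1 deleted peak (fold enrichment 3.83) and 1 control peak (3.03) that did not overlap.

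A pair of genes at imprinted loci were among the 52 genes, of 186 with a member, that had members in the deleted list alone. Snrpn, whose RefSeq span exceeds 400 kb, had 2 deleted members and 0 control members, both deleted-only, with a top fold enrichment of 4.20. Trappc9, the gene that holds Peg13, had 5 deleted members and 0 control members, with a top value of 3.52, and 31 deleted and 12 control peaks deeper inside. Of all deleted members 59.0% were deleted-only, and of all deleted peaks of chromosomes 1 to 19 50.7% were. At a fold enrichment from 3 to 4 these percentages were 70.4% and 68.1%. These genes were singled out after their values were seen, and no gain at imprinted loci is read from them.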
